A study of Mus musculus with 8 samples.

Results

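The liver both burns and makes glucose, and a small set of enzymes and transporters decides the direction. Of these, 8 genes were followed, out of 19552 measured, with 82 of 206316 singly annotated probe sets, in livers of 2 mouse genotypes. They were chosen by name, not by their values, though with earlier results of these data known. They are genes of the switch between the adult liver programme and the programme of fetal liver and tumours. The adult genes are Slc2a2, Pklr, Pck1, Fbp1 and G6pc, and the genes Slc2a1, Hk2 and Pkm prevail in fetal, dividing or malignant cells. Every probe set annotated with the symbol of 1 member alone was used, and the value of a gene on an array is the median over its probe sets. Pkm is listed under its older symbol Pkm2, which names the whole gene and not its M2 splice form, so the M1 and M2 forms were not separated here.

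All 8 mice were males aged 6 weeks that lacked the kinase TAK1 in liver parenchymal cells (LPC), the epithelial cells of the liver, and 1 Affymetrix array was hybridised with total liver RNA of each. In 4 mice (Tak1/Casp8) caspase 8, through which death receptors trigger apoptosis, was deleted in LPC too, and the other 4 (Tak1/Rip3) were Rip3-/- and so lacked the necroptosis kinase RIP3, with no restriction to LPC given. The comparison asks which genes respond differently to apoptotic and to necrotic signalling. The labels name no transgene for the deletion in LPC, and other cells of the liver keep Map3k7, the gene of TAK1, and Casp8. Without livers that keep TAK1, which were not analysed here, each difference, always Tak1/Casp8 minus Tak1/Rip3, may be read as higher in one group or lower in the other.

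In glycolysis a hexokinase traps glucose in the cell and pyruvate kinase makes pyruvate at the end. Gluconeogenesis runs back past the irreversible steps with pyruvate carboxylase, phosphoenolpyruvate carboxykinase, fructose bisphosphatase and glucose 6-phosphatase. Hepatocytes of the adult liver use the low-affinity transporter GLUT2 (Slc2a2) and the liver pyruvate kinase (Pklr), whereas fetal liver and many liver tumours use GLUT1 (Slc2a1), hexokinase 2 (Hk2) and the M-type pyruvate kinase (Pkm).

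None of the 8 genes passed the test between the genotypes. In limma, with Benjamini-Hochberg adjustment over all 19552 genes and a threshold of 0.05, 0 of 8 were called, beside 6.69% of all genes. At an unadjusted p under 0.05 there were 3 of 8 (Pck1, Hk2 and Slc2a1), beside 21.1% of all genes. A test with separate, unmoderated variances called 0 of 8 too, but it called only 115 of all 19552 genes. In 0 of 8 did the 4 values of one genotype lie wholly beyond the 4 of the other, which was so in 14.6% of all genes (6.33% with Tak1/Casp8 above, 8.3% with it below). No member differed by more than 1.5-fold, which 1059 of all 19552 genes did. The median difference of the 8 was 0.05 on the log2 scale, and that of all genes 0.01. Without regard to sign the medians were 0.20 and 0.14. The labels used here do not say whether the mice shared a litter or a batch.

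Pck1 and Pklr are shown with the DNA before their start sites, because Pck1 had the largest difference of the 8 and Pklr is the adult pyruvate kinase of the set, and because the textbook sites through which hormones and sugar act on them lie there. The sequences are from RefSeq, assembly GRCm38.p6, 250 bases that end just before the annotated start, 5′ to 3′ on the strand of the gene. In Pck1 (chr2:173152823-173153072, plus strand) the capitals mark a match to the cAMP response element, searched as TNACGTCA on both strands. In Pklr (chr3:89136373-89136622, plus strand, before the downstream of its 2 annotated starts, that of the liver form) they mark a match to the carbohydrate response element, the site of ChREBP, searched as CANGNG and CNCNTG at the ends of 17 bases, which reads the same on both strands.
Pck1: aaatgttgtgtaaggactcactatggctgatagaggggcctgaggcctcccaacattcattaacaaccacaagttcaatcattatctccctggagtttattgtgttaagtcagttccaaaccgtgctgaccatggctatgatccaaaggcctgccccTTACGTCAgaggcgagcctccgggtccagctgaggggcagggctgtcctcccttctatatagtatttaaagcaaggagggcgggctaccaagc
Pklr: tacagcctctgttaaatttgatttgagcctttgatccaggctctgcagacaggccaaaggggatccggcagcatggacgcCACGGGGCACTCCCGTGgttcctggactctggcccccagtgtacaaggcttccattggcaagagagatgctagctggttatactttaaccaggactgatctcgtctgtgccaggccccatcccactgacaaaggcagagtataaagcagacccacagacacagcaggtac

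The Pck1 match begins 93 bases before the start and the Pklr match 170 bases before it. Windows were held for all 8 members, 10 in all since Pklr and Pkm have 2 starts each. TNACGTCA was found before Pck1 alone of the 8, and in 2.52% of 32851 windows of the same length over all genes. The 17-base pattern was found before Pklr alone, and in 0.454% of those windows. ACGTG, the core that hypoxia-inducible factors bind, was found on either strand before Hk2, Pkm and Slc2a1, and in 16.6% of windows. It shares the letters ACGT with the first motif. A match says only that these letters occur in the window.

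**Figure D1:**
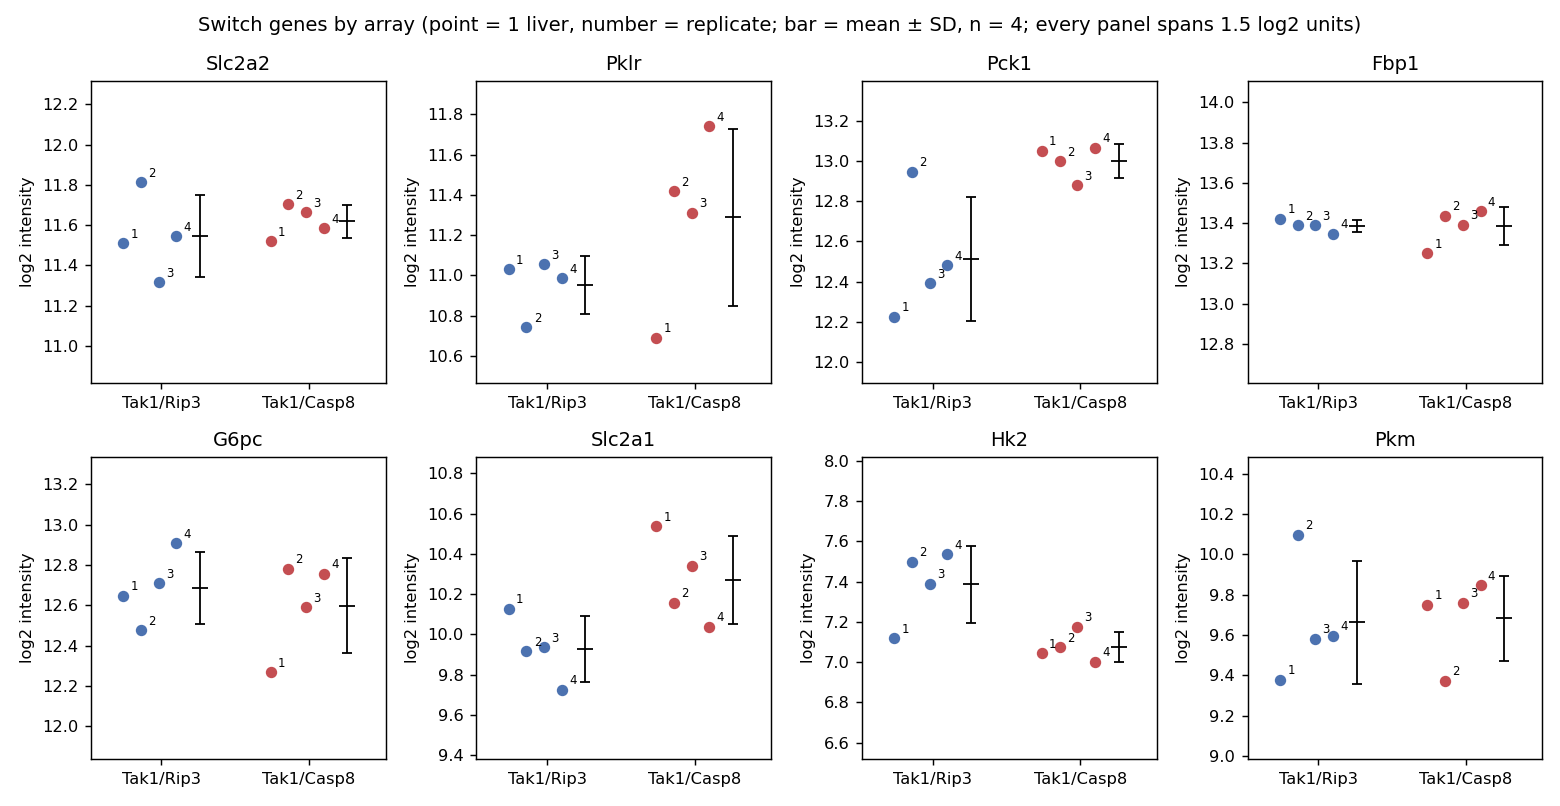
Log2 intensity (y axis) of each of the 8 genes in the 4 Tak1/Rip3 livers (blue) and the 4 Tak1/Casp8 livers (red), with the replicate number beside each point and the mean ± SD beside each group; every panel spans the same range. In every panel the points of the groups overlap, in Pck1 through Tak1/Rip3 replicate 2 alone.

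Pck1 encodes the cytosolic phosphoenolpyruvate carboxykinase, the first committed enzyme of gluconeogenesis. Its log2 intensity in the Tak1/Rip3 livers was 12.23, 12.95, 12.39 and 12.48 for replicates 1 to 4, and in the Tak1/Casp8 livers 13.05, 13.00, 12.88 and 13.07. The Tak1/Casp8 livers lay close together, 3 Tak1/Rip3 livers lay below all of them, and Tak1/Rip3 replicate 2 lay among them. The means were 13.00 ± 0.09 (SD, n = 4) and 12.51 ± 0.31 (SD, n = 4), a log2 difference of 0.49 ± 0.14 (SE), or 1.40-fold, with a 95% interval of 1.12-fold to 1.75-fold, and limma gave an adjusted p of 0.0760. Without Tak1/Rip3 replicate 2 the difference was 0.63 and passed (limma adjusted p = 0.00950), whereas over all 19 alternatives the adjusted p ranged from 0.00950 to 0.269 and passed in 7. Among the Tak1/Rip3 arrays replicate 2 had the lowest mean correlation with its own group, 0.987, and Tak1/Casp8 replicate 4, at 0.985, was lower still. Whether Pck1 is called thus turned on 1 array and on the setting.

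All 10 probe sets of Pck1 were higher in the Tak1/Casp8 livers, by 0.38 to 0.93 on the log2 scale. Tested singly over all probe sets, 2 of the 10 passed, beside 1.64% of all singly annotated probe sets. The groups were separate in 3, and how often this was so over all probe sets was not counted. The probe sets of a gene read the same RNA of the same 8 livers, so they do not count as replicates.

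The later enzymes of gluconeogenesis showed little difference. Fbp1, fructose bisphosphatase, had log2 intensities of 13.42, 13.39, 13.39 and 13.35 in the Tak1/Rip3 livers and of 13.25, 13.44, 13.39 and 13.46 in the Tak1/Casp8 livers. The Tak1/Rip3 livers lay within the range of the others. The log2 difference was -0.0024 ± 0.086 (SE with 4 livers each, limma adjusted p = 0.993), and the 95% interval, 0.875-fold to 1.14-fold, was narrow.

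G6pc, the catalytic subunit of glucose 6-phosphatase, which releases free glucose, had 12.65, 12.48, 12.71 and 12.91 in the Tak1/Rip3 livers. The Tak1/Casp8 livers had 12.27, 12.78, 12.59 and 12.76. The highest value belonged to a Tak1/Rip3 liver and the lowest to a Tak1/Casp8 liver, and the others were mixed. The log2 difference was -0.09 ± 0.14 (SE with 4 livers each, limma adjusted p = 0.777), with a 95% interval of 0.763-fold to 1.16-fold. All 6 of its probe sets were lower in the Tak1/Casp8 livers, but by 0.15 at most, and without Tak1/Casp8 replicate 1 the difference was 0.02.

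Pklr encodes the pyruvate kinase of hepatocytes and red cells. It had log2 intensities of 11.03, 10.74, 11.06 and 10.99 in the Tak1/Rip3 livers and of 10.69, 11.42, 11.31 and 11.74 in the Tak1/Casp8 livers. Of the Tak1/Casp8 livers 3 lay above all Tak1/Rip3 livers, and replicate 1 lay below all of them. The log2 difference of 0.34 ± 0.19 (SE, n = 4 per group), or 1.26-fold, did not pass (limma adjusted p = 0.361), and its 95% interval ran from 0.939-fold to 1.70-fold. Without Tak1/Casp8 replicate 1 the difference was 0.54 (limma adjusted p = 0.0552), without replicate 4 it was 0.19, and over the 19 alternatives the adjusted p ranged from 0.0552 to 0.750. Of 11 probe sets 10 were higher in the Tak1/Casp8 livers and none passed. The exception, at a mean level of 2.90, lay far below the lower quartile of the arrays, 6.47 to 6.52 over single probe sets, where an array measures mostly background.

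Slc2a2 encodes GLUT2, through which glucose both enters and leaves hepatocytes. It had 11.51, 11.81, 11.32 and 11.55 in the Tak1/Rip3 livers, and the Tak1/Casp8 livers, at 11.52, 11.70, 11.67 and 11.58, lay within that range. The log2 difference was 0.07 ± 0.11 (SE with 4 livers each, limma adjusted p = 0.781), with a 95% interval of 0.881-fold to 1.25-fold. Of its 10 probe sets 9 were higher in the Tak1/Casp8 livers, by up to 0.24, and none passed.

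Among the genes of the fetal and tumour programme, Slc2a1, the high-affinity transporter GLUT1, had log2 intensities of 10.13, 9.92, 9.94 and 9.73 in the Tak1/Rip3 livers and of 10.54, 10.16, 10.34 and 10.04 in the Tak1/Casp8 livers. The groups overlapped through 1 value, the highest Tak1/Rip3 liver, which lay above the lowest Tak1/Casp8 liver. The log2 difference was 0.34 ± 0.13 (SE, n = 4 per group), or 1.27-fold with a 95% interval of 1.04-fold to 1.55-fold, and did not pass (limma adjusted p = 0.159). All 11 of its probe sets were higher in the Tak1/Casp8 livers, by 0.06 to 0.69, and none passed singly.

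Hk2, the hexokinase of muscle, fat and many tumours, lay the other way. It had 7.12, 7.50, 7.39 and 7.54 in the Tak1/Rip3 livers and 7.04, 7.08, 7.18 and 7.00 in the Tak1/Casp8 livers. Of the Tak1/Rip3 livers 3 lay above all Tak1/Casp8 livers, and replicate 1 lay among them. The log2 difference was -0.31 ± 0.11 (SE, n = 4 per group), 1.24-fold lower in the Tak1/Casp8 livers, with a 95% interval for the ratio of 0.681-fold to 0.954-fold, and it did not pass (limma adjusted p = 0.130).

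The probe sets of Hk2 did not run together. Of 19, 15 had negative and 4 positive differences, from -0.73 to 0.66. Tested singly 1 passed, at -0.63, beside 1.64% of all singly annotated probe sets. The probe set at 0.66 had all 4 Tak1/Casp8 values above all 4 Tak1/Rip3 values, against the direction of the gene. In 3 others the groups were separate the opposite way, and the share of such probe sets over all was not counted. Of the 19, 4 had mean levels under the lower quartile of the arrays. Without Tak1/Rip3 replicate 1 the difference was -0.40 (limma adjusted p = 0.0601).

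Pkm, the pyruvate kinase of most tissues outside the liver, had 9.38, 10.10, 9.58 and 9.60 in the Tak1/Rip3 livers and 9.75, 9.37, 9.76 and 9.85 in the Tak1/Casp8 livers. The highest value was that of Tak1/Rip3 replicate 2, the array that also stood high in Pck1. The log2 difference was 0.02 ± 0.16 (SE with 4 livers each, limma adjusted p = 0.965), with a 95% interval of 0.791-fold to 1.30-fold. Of 7 probe sets 6 had positive differences and 1 a negative one, from -0.36 to 0.36, and both extremes came from the dimmest probe sets, at mean levels of 7.26 and 7.02.

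**Figure D2:**
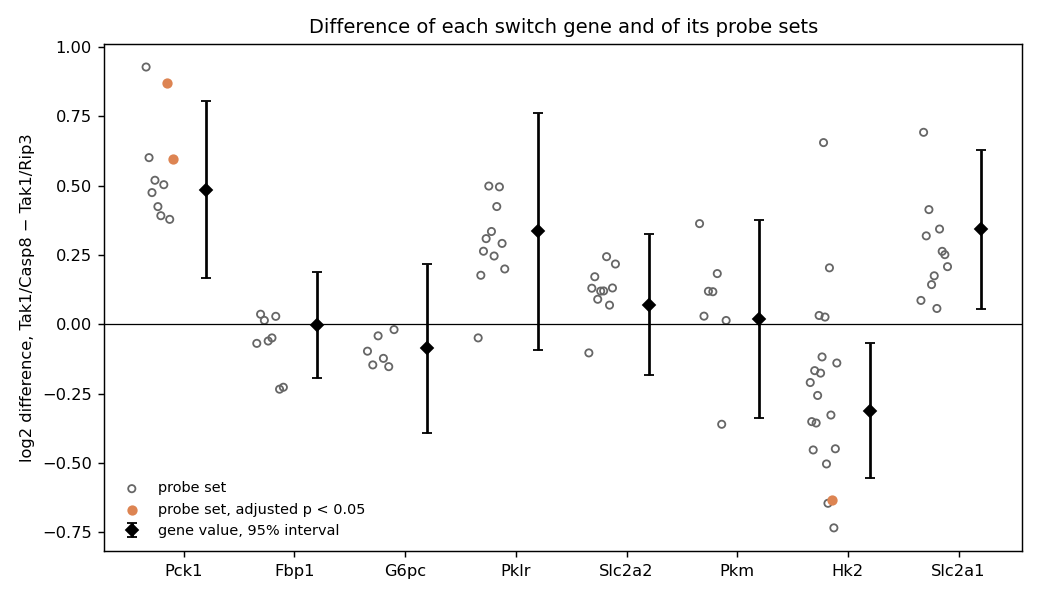
Log2 difference, Tak1/Casp8 minus Tak1/Rip3 (y axis), of each of the 8 genes: black diamonds with 95% intervals from limma stand for the gene values, and circles for single probe sets, filled where the adjusted p was under 0.05. The probe sets of Pck1 and Slc2a1 all lie above 0, those of G6pc all below, and those of Hk2 spread from -0.73 to 0.66; filled circles occur in Pck1 (2) and Hk2 (1).

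Set against each other within an array, the adult and the fetal or tumour forms did not shift as a block. Only the change between genotypes can be read from such a subtraction, since probe sets of different genes have no common scale. Pklr minus Pkm was 1.61 ± 0.49 (SD, n = 4) in the Tak1/Casp8 livers and 1.29 ± 0.44 (SD, n = 4) in the Tak1/Rip3 livers, on the log2 scale. The lowest value, 0.64, was that of Tak1/Rip3 replicate 2, and the next, 0.94, that of Tak1/Casp8 replicate 1, so the groups overlapped. Slc2a2 minus Slc2a1 changed in the opposite sense, with 1.35 ± 0.27 (SD, n = 4) in the Tak1/Casp8 livers and 1.62 ± 0.28 (SD, n = 4) in the Tak1/Rip3 livers, and the groups overlapped too.

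Pck1 minus Pkm, which sets the entry to gluconeogenesis against the last step of glycolysis, was the one of the 4 subtractions with separate groups. It was 2.85, 2.85, 2.81 and 2.89 in the Tak1/Rip3 livers and 3.30, 3.63, 3.12 and 3.22 in the Tak1/Casp8 livers. All 4 Tak1/Casp8 values lay above the highest Tak1/Rip3 value. The mean change was 0.47, and that of Pck1 alone 0.49. Pck1 and Pkm were both highest of the Tak1/Rip3 livers in replicate 2 and both lowest in replicate 1, and the subtraction had an SD of 0.03 in that group. No test was run on these subtractions, because the pairs were chosen with results of these data known.

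**Figure D3:**
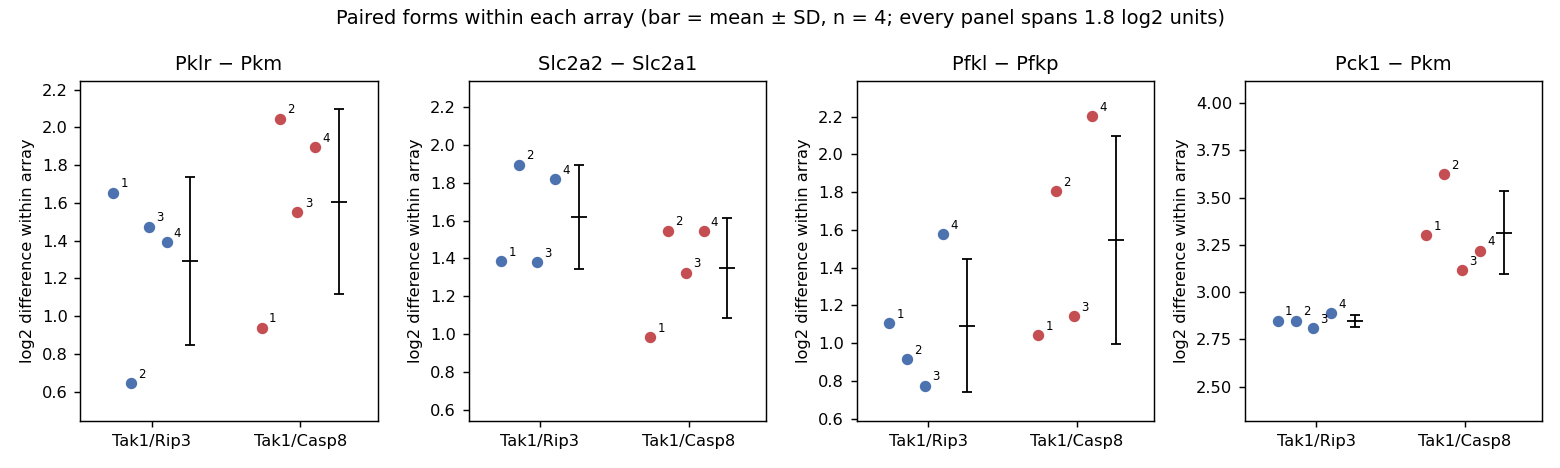
Log2 intensity of the first gene minus that of the second within each array (y axis), for Pklr and Pkm, Slc2a2 and Slc2a1, Pfkl and Pfkp, and Pck1 and Pkm, in the 4 Tak1/Rip3 livers (blue) and the 4 Tak1/Casp8 livers (red), with replicate numbers and the mean ± SD. The groups overlap in the first 3 panels and are separate in the last, where the Tak1/Rip3 values lie between 2.81 and 2.89.

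Single livers held the lowest or highest value of their group in several members at once. In every gene some array of each group must hold these ranks, so they do not by themselves set a liver apart. Dixon's test, for an array far from the others of its group, flagged 0 of the 16 groups of the members. Tak1/Casp8 replicate 1 had the lowest value of its group in Pklr, G6pc, Fbp1 and Slc2a2 and the highest in Slc2a1. It also had the highest mean log2 level of its group over the 6 bile duct markers measured, 9.10 against 8.11 to 8.76. Over the 7 macrophage and Kupffer cell markers it was highest by a narrow margin, 10.24 against 9.77 to 10.22. Over the 8 hepatocyte markers it lay within its group, 13.38 against 13.26 to 13.41. Tak1/Rip3 replicate 2 had the highest value of its group in Pck1, Pkm and Slc2a2 and the lowest in Pklr and G6pc. In bulk tissue fewer cells of a type and less RNA per cell cannot be told apart, and the part of other cells in these values was not tested.

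Markers of other cells moved between the genotypes beside these genes. Over all genes 2.64% were called higher in the Tak1/Casp8 livers and 4.05% lower. The 7 measured markers of dividing cells were all called lower in the Tak1/Casp8 livers, with mean log2 levels of 7.32 to 8.66 over the list against 9.36 to 10.22, and Hk2 lay in the same direction. Of 7 lymphocyte markers 2, the B cell genes Ms4a1 and Cd79a, were called lower (6.24 to 6.44 over the list against 6.72 to 6.88). Their means, 4.89 and 5.09 in the Tak1/Casp8 livers against 6.00 and 6.47, lay about or under the lower quartile of the arrays. No T or NK cell marker was called, though none of the 7 differences was positive. Of 6 stellate and myofibroblast markers 1 was called lower (9.33 to 10.01 against 9.94 to 10.35). None of these 6 differences was positive, with a median of -0.35. Of 6 bile duct markers 1, Spp1, was called higher (8.11 to 9.10 over the list against 8.52 to 8.80). Only 2 of these 6 differences were positive, with a median of -0.20, and Epcam differed by -1.05 without a call. None of the 7 macrophage markers, 6 endothelial, 6 neutrophil, 4 erythroid or 6 muscle and fat markers was called. The 8 hepatocyte markers had mean levels of 13.25 to 13.41 over all 8 livers and none was called. The muscle and fat list, whose cells use Hk2, lay at 6.36 to 6.78, about the lower quartile of the arrays. The part of these cells in the members' values was not tested.

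The genotype labels were checked on their target genes. In the Tak1/Casp8 livers Casp8 was lower by 2.47-fold (limma adjusted p = 0.000123) and Ripk3 1.97-fold higher there, thus lower where Rip3 is knocked out (adjusted p from limma 0.00781), though with its brightest probe set Ripk3 differed by -0.04. Map3k7, targeted in both genotypes, differed by -0.08. Where the probe sets lie relative to the deleted exons was not analysed here. The median log2 intensity of the 8 arrays lay between 8.06 and 8.16, and any 2 arrays correlated across genes with 0.975 to 0.993.

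Around the 8 members, the wider pathway held genes that did pass. Of 120 other genes in 10 lists of glucose metabolism 112 were measured, and 15 passed, 12 upwards in the Tak1/Casp8 livers and 3 downwards, 13.4% in all beside the 6.69% over all genes (2.64% higher and 4.05% lower). The median difference of the 112 was 0.07. The 6.69% takes in dim genes. The filter at the 50th percentile kept the brighter 50% of the genes, and 1337 of these were called, beside 1309 of all 19552. The share among brighter genes was thus about as high as the 13.4% of the listed genes. The listed genes were not set against genes of like level. The shares over all genes given beside the lists below take in dim genes too. With separate, unmoderated variances 2 of the 15, Aldoc and Pfkl, still passed, beside 115 of all 19552 genes.

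Aldoc, the aldolase of brain, had the largest called difference among them. Its log2 intensity was 9.22, 9.02, 8.90 and 8.78 in the Tak1/Rip3 livers and 10.30, 10.50, 9.98 and 10.57 in the Tak1/Casp8 livers, with all Tak1/Casp8 livers above all others. It was 2.57-fold higher there (log2 difference 1.36 ± 0.15 SE with 4 livers each, adjusted p = 0.000756), and the difference was 1.28 to 1.48 whichever array was left out. Aldoa, the aldolase of muscle and of fetal liver, differed by 0.05 and did not pass.

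Phosphofructokinase commits sugar to glycolysis. Pfkl, its liver form, had 9.03, 9.04, 8.92 and 9.06 in the Tak1/Rip3 livers and 9.42, 9.60, 9.62 and 9.57 in the Tak1/Casp8 livers, without overlap. It stood 1.46-fold higher in Tak1/Casp8 livers (0.54 ± 0.09 SE with 4 livers each, adjusted p = 0.00661) and passed without any 1 array. Pfkp, the platelet form found in tumours, differed by 0.09 and Pfkm, the muscle form, by -0.18, and neither passed. Pfkl minus Pfkp overlapped between the groups, since Pfkp varied widely among the Tak1/Casp8 livers (SD 0.52).

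Of the 4 bifunctional enzymes that set the level of fructose 2,6-bisphosphate, the activator of phosphofructokinase, 1 was called. Pfkfb2, the heart form, was called 1.43-fold higher in the Tak1/Casp8 livers (limma adjusted p = 0.0185), but not in 4 of the 8 fits that left out 1 array (Tak1/Rip3 1 and 3, Tak1/Casp8 1 and 2, adjusted p up to 0.0613). Pfkfb1, the liver form, differed by 0.36 and did not pass (limma adjusted p = 0.170). Nor did Pfkfb3 at -0.0092 and Pfkfb4 at -0.16, both named after their values were seen. The 3 measured adult liver forms of glycolysis, Pfkl, Pklr and Pfkfb1, all had positive differences, with a median of 0.36. Their mean levels were 10.27 to 10.68 in the Tak1/Casp8 livers and 10.04 to 10.15 in the Tak1/Rip3 livers. Of 11 fetal, muscle, brain or tumour forms 5 differences were positive, with a median of -0.0092 (8.54 to 8.72 against 8.51 to 8.60). Neither list was tested as a whole. Gckr, a regulatory protein of hepatic glucose use, was 1.45-fold higher (limma adjusted p = 0.0320), and did not pass in 4 of those fits (Tak1/Rip3 1 and 4, Tak1/Casp8 2 and 3, up to 0.0967).

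Of 8 genes of gluconeogenesis, members included, Pcx alone was called. Pcx encodes pyruvate carboxylase, which feeds the pathway one step before Pck1. It had 11.62, 11.45, 11.59 and 11.37 in the Tak1/Rip3 livers and 12.03, 12.02, 12.08 and 11.89 in the Tak1/Casp8 livers. The groups did not overlap, and Pcx stood 1.41-fold higher in Tak1/Casp8 livers (0.50 ± 0.09 SE with 4 livers each, adjusted p = 0.0129). With the brightest of its 22 probe sets alone the difference was 0.24 and did not pass (limma adjusted p = 0.174). Pck2, the mitochondrial carboxykinase, differed by -0.23, Slc37a4, which carries glucose 6-phosphate to the phosphatase, by 0.30, and G6pc3, the phosphatase subunit of most tissues, by -0.23, none of them called. The median over the 8 was -0.03.

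**Figure D4:**
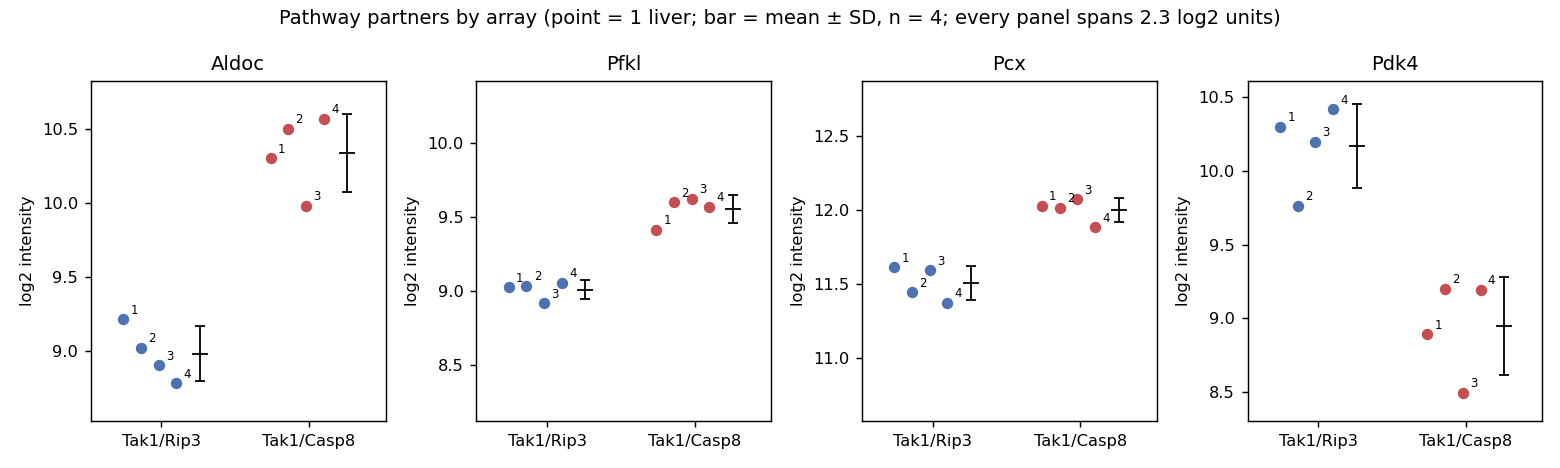
Log2 intensity (y axis) of Aldoc, Pfkl, Pcx and Pdk4 in the 4 Tak1/Rip3 livers (blue) and the 4 Tak1/Casp8 livers (red), with replicate numbers and the mean ± SD; every panel spans the same range. All Tak1/Casp8 livers lie above all Tak1/Rip3 livers in Aldoc, Pfkl and Pcx, and below all of them in Pdk4.

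Of 18 measured genes that handle pyruvate and lactate 2 were called lower in the Tak1/Casp8 livers and none higher, beside 4.05% and 2.64% of all genes. Of the 18 differences 10 were positive, with a median of 0.05. Pdk4, the kinase that shuts pyruvate out of the mitochondrial dehydrogenase during fasting, had 10.30, 9.76, 10.20 and 10.41 in the Tak1/Rip3 livers and 8.89, 9.20, 8.50 and 9.19 in the Tak1/Casp8 livers. It was lower in all 4 Tak1/Casp8 livers, by -1.22 ± 0.18 (SE, limma adjusted p = 0.00441), and by -0.78 with its brightest probe set (limma adjusted p = 0.182). Slc16a1, the monocarboxylate transporter MCT1 that moves lactate across the membrane, had 11.49, 11.02, 11.89 and 11.96 against 10.60, 10.86, 10.61 and 10.62, a difference of -0.92 ± 0.19 (SE, limma adjusted p = 0.0170). Ldha, which makes lactate from pyruvate, differed by -0.28 without overlap of the groups but did not pass (limma adjusted p = 0.0981), and Pdk1, a target of HIF1, by 0.43 (limma adjusted p = 0.0993).

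The enzymes shared by glycolysis and gluconeogenesis had 0 of 8 measured genes called in limma (2 at an unadjusted p under 0.05, Eno3 and Gpi1). Eno3, the muscle enolase, differed by -0.29 and Gpi1, the glucose phosphate isomerase, by 0.25, both without overlap of the groups. Of the 10 transporters of the GLUT family, with Slc2a1 and Slc2a2 among them, none was called either, with Slc2a1 alone at an unadjusted p under 0.05. Slc2a3, Slc2a10 and Slc2a12 differed by -0.15 to 0.13.

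Of 15 glycogen genes 1 was called higher and 1 lower, beside 2.64% and 4.05% of all genes. Gbe1, the branching enzyme, stood 1.67-fold higher in Tak1/Casp8 livers (limma adjusted p = 0.0273), but did not pass in 5 of the 8 fits that left out 1 array (Tak1/Rip3 1, 2 and 3, Tak1/Casp8 2 and 3, up to 0.0720). Gyg, glycogenin, the primer of glycogen, was 1.48-fold lower (limma adjusted p = 0.0163), lost without Tak1/Rip3 replicate 1 (0.0555). Gys2 and Pygl, the liver's glycogen synthase and phosphorylase, were named after their values were seen; they differed by 0.01 and -0.15 and did not pass. Phkg2 and Pgm2 differed by 0.38 and 0.28, without overlap and without a call.

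Among the regulators of these genes 3 of 26 were called higher in the Tak1/Casp8 livers and none lower, beside 2.64% and 4.05% of all genes, and each of the 3 calls was lost in 5 to 8 of the 8 fits that left out 1 array. Ppargc1a, the coactivator that drives Pck1 and G6pc in fasting, had 8.83, 9.60, 9.04 and 8.94 in the Tak1/Rip3 livers and 10.09, 9.62, 10.22 and 9.72 in the Tak1/Casp8 livers. The groups touched without overlap, with Tak1/Rip3 replicate 2 just under the lowest Tak1/Casp8 liver, and the difference was 0.81 ± 0.19 (SE, limma adjusted p = 0.0288). It did not pass in 5 of the 8 fits that left out 1 array (Tak1/Rip3 1, 3 and 4, Tak1/Casp8 1 and 3, up to 0.0890), and with the brightest of its 15 probe sets the difference was 0.42.

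Insr, the insulin receptor, differed by 0.45 (limma adjusted p = 0.0299), and did not pass in 5 of those fits (Tak1/Rip3 1 and 4, Tak1/Casp8 1, 2 and 3, up to 0.0895). Cebpa, a liver factor that binds the Pck1 promoter, differed by 0.37 (limma adjusted p = 0.0468), lost without any 1 of the 8 arrays (up to 0.134). Foxo1, which insulin keeps off the G6pc and Pck1 promoters, differed by 0.08, and Mlxipl, which encodes the ChREBP that reads the site printed for Pklr, by 0.26 (limma adjusted p = 0.297). Neither passed.

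Tat, tyrosine aminotransferase, induced like Pck1 by glucocorticoid and cAMP, had 12.91, 13.43, 12.72 and 12.91 in the Tak1/Rip3 livers and 13.52, 13.49, 13.39 and 13.57 in the Tak1/Casp8 livers. As in Pck1, Tak1/Rip3 replicate 2 lay among the Tak1/Casp8 livers and the other 3 lay below. Its difference of 0.50 did not pass (limma adjusted p = 0.0652), and was 0.64 without that array (limma adjusted p = 0.00718, over all alternatives 0.00718 to 0.256, passing in 7 of 19). Igfbp1, a fasting-induced binding protein for insulin-like growth factors, did not share that order. It had 10.54, 9.04, 11.70 and 11.56 against 11.96, 11.23, 12.43 and 11.17, with Tak1/Rip3 replicate 2 the lowest of all, and differed by 0.99 without passing (limma adjusted p = 0.324).

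Hypoxia-inducible factor raises GLUT1, hexokinase 2 and the lactate-making enzymes in hypoxic tissue. Hif1a differed by 0.29 and did not pass (limma adjusted p = 0.405). Of 10 other targets of the factor 3 were called higher in the Tak1/Casp8 livers and none lower, beside 2.64% and 4.05% of all genes. The median of the list was 0.34, with 7 of 10 differences positive. Egln3, another oxygen sensor, differed by -0.46 and Ndrg1 by -0.13, neither called, both named after their values were seen. P4ha2, a collagen prolyl hydroxylase, was 1.54-fold higher (limma adjusted p = 0.00818), Egln1, an oxygen sensor, 1.40-fold (0.0296) and Bnip3, a mitophagy receptor, 1.58-fold (0.0386). The P4ha2 call held without any 1 array but not with its brightest probe set (0.21), Egln1 did not pass in 5 fits without 1 array (Tak1/Rip3 1, 2 and 4, Tak1/Casp8 1 and 2, up to 0.0890), and the Bnip3 call without any array but Tak1/Rip3 replicate 2 (up to 0.108). Within the members, Slc2a1 lay in the same direction and Hk2 in the opposite one.

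**Figure D5:**
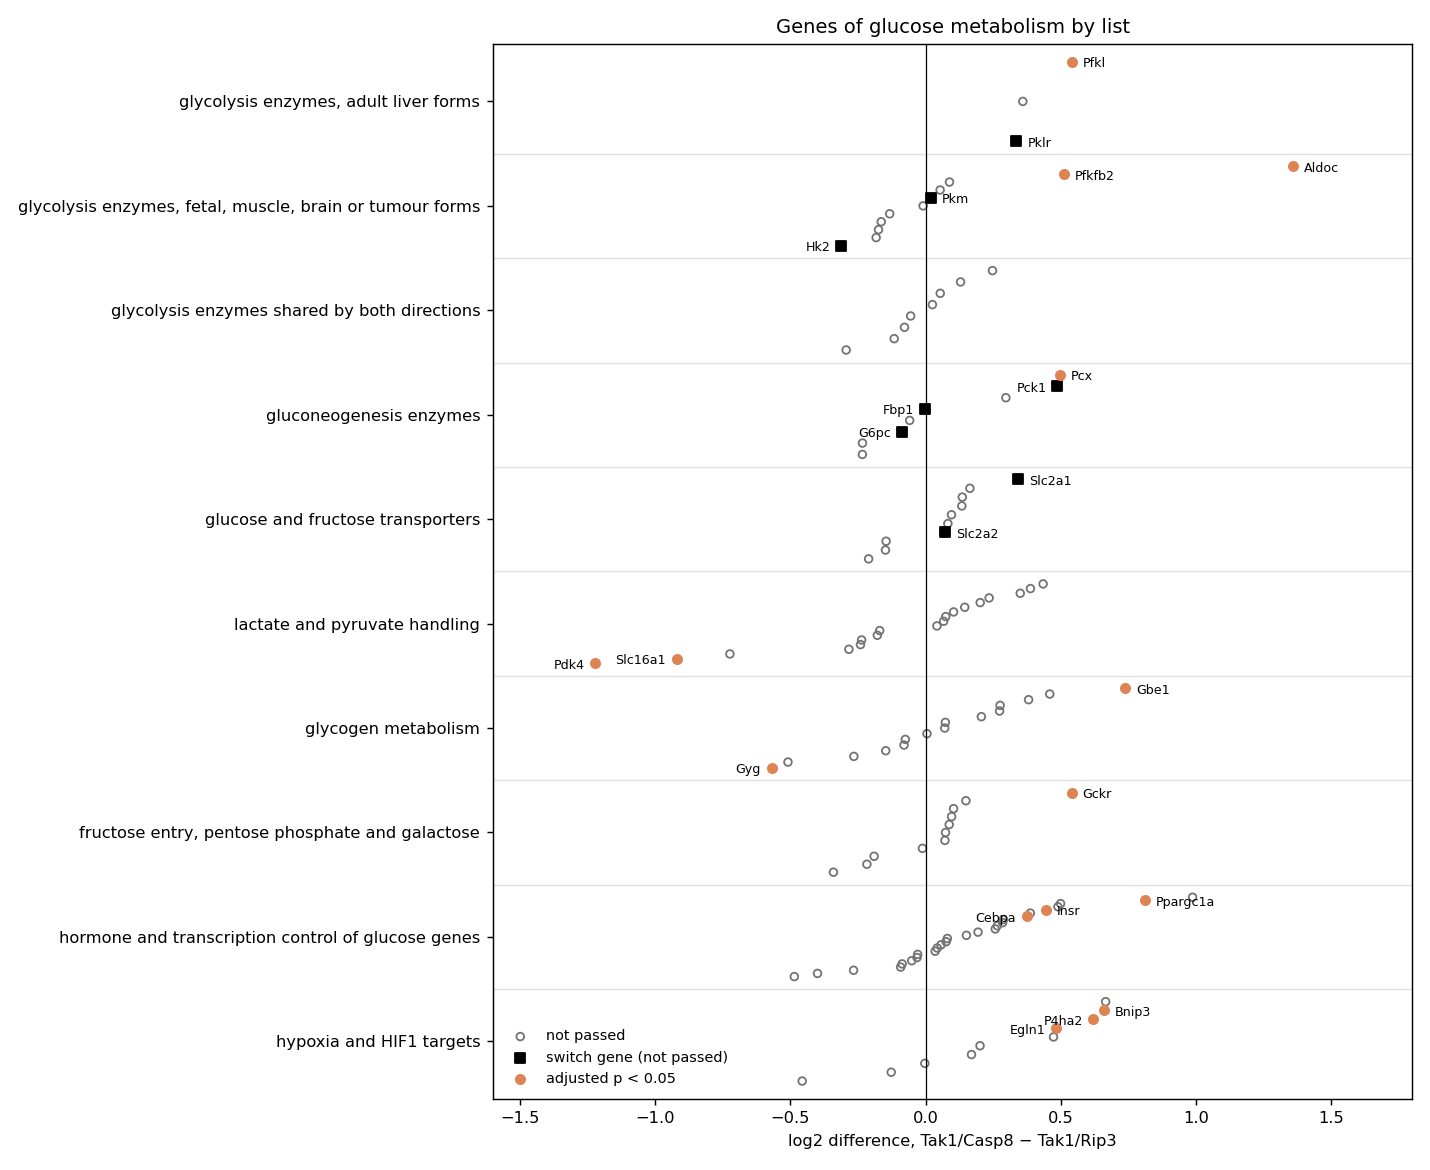
Log2 difference, Tak1/Casp8 minus Tak1/Rip3 (x axis), of every measured gene in 10 lists of glucose metabolism (rows); open circles did not pass, black squares are the 8 switch genes and orange points had a limma adjusted p under 0.05. The black squares lie between -0.31 and 0.49, and the points farthest from 0 are Aldoc at 1.36 and Pdk4 at -1.22.

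The genes whose deviations from the group means over the 8 arrays were most like those of a member are given as a description. They were Tpst1 for Pck1 (Pearson r = 0.990, Spearman rho = 0.952), Allc for Pklr (0.987 and 0.976), Nat5 for Slc2a1 (0.979 and 0.952) and Wdr48 for Hk2 (0.972 and 0.929). For Pkm, G6pc, Fbp1 and Slc2a2 they were Sh3tc2, Hormad2, Vma21 and Zxdc, with r between 0.977 and 0.988. Symbols of unnamed transcripts and of olfactory receptor, vomeronasal receptor and microRNA genes were left out of this search. Of the other genes, 112 had r above 0.9 with Pck1 and 26 with Hk2. These likenesses rest on 8 arrays that the genes share. None of the 8 partners was called between the genotypes.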

How the data were processed

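Total RNA of 8 snap-frozen livers was hybridised to 1 array each. The deposited values are log2 intensities per probe set, made by the authors with RMA per the submitters' processing notes (no version listed). Of 223771 probe sets, 206316 carried 1 gene symbol, 3734 several and 13721 none in the platform annotation, and those with several or none were left out. Of the symbols, 2587 were updated through RefSeq (GRCm38.p6), giving 19552 genes. A gene's value is the median over its probe sets. Genotypes were compared with limma 3.58.1 (R 4.3.3; lmFit and eBayes, two-sided, no covariates), with Benjamini-Hochberg adjustment over all genes and calls under 0.05; the fit was tested on simulated data. Replicate numbers follow accession order and only name arrays. P-values measure the spread between these 8 mice. The labels name no batch.

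The members, lists and tests were chosen with earlier results of these data known. Named were the 8 members, the targeted genes, a set of partner forms and regulators whatever their values, up to 4 genes per list with the smallest adjusted p, and 1 most alike gene per member. Alternatives changed the normalization, the summary over probe sets, the filter on dim genes, the variance model, the threshold and the arrays used. Some listed genes are not reported here.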

Additional observations from a re-analysis of the deposited data

Results flagged for a closer look

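In 8 of 108 groups of 4 arrays, over the members, targeted genes and other named genes, 1 array lay far from the other 3 by Dixon's test, and none of these were among the 16 groups of the 8 switch genes. Chance flags about 1 in 20 groups. Ripk3 was 6.36 in Tak1/Rip3 replicate 1, with the next value at 7.04. Pck2 was 8.11 in Tak1/Rip3 replicate 3, below 8.26. Eno3 was 7.90 in Tak1/Rip3 replicate 4, below 8.05, and 7.66 in Tak1/Casp8 replicate 4, below 7.75. Tak1/Casp8 replicate 2 was high in 3 genes, with Slc37a4 at 12.30 above 11.78, Slc16a1 at 10.86 above 10.62 and Phkg2 at 9.95 above 9.69. Tkfc, the triokinase of fructose breakdown, was 11.45 in Tak1/Casp8 replicate 1, below 11.83. All are log2 intensities.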

How the results depend on the processing

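Of 151 values of the 8 switch genes under alternatives, 133 kept direction and side of the threshold, 7 passed it (all Pck1) and 11 changed sign. With Pck1 the number called was 1 in place of 0 with the mean over probe sets (0.57), the brighter probe sets (0.50), the filter at the 50th percentile (0.49), eBayes trend and robust settings (0.49), array weights (0.54) and without both least correlated arrays (0.61), and at a threshold of 0.10. Leaving out 1 array gave 0 to 1 called, with Pck1 from 0.39 to 0.63. Signs changed for Fbp1 on a common median (0.038) and, leaving out 1 array, for Fbp1 (-0.027 to 0.042), G6pc (-0.156 to 0.024), Slc2a2 (-0.0056 to 0.160) and Pkm (-0.076 to 0.164). Of all genes 758 were called with the brightest probe set, 115 with the unmoderated test with separate variances, 406 at a threshold of 0.01 and 2131 at 0.10, in place of 1309, and 706 to 1348 leaving out 1 array.

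Among 46 other named genes, 78 of 865 values lost a call, 21 gained one and 14 changed sign. With the brightest probe set the difference was 0.088 for Map3k7, -0.036 for Ripk3, 0.10 for Hk1, 0.24 for Pfkm, 0.21 for Eno3 and 0.26 for Slc2a10. With the mean it was 0.094 for Map3k7 and -0.046 for Aldoa, and with the brighter probe sets -0.092 for Aldoa and 0.077 for Slc2a3. Leaving out 1 array, Aldoa ranged from -0.038 to 0.103 and Pfkp from -0.070 to 0.301. The cause was not tested. The filter at the 50th percentile gave no value for Hk2, which it removed. With 4 arrays a group, the precision is that of the 95% intervals given. No paired analysis was possible because the labels give the groups no shared replicate numbers.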
